A study of Mus musculus with 6 samples.

Results

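The genes described here carry the signal of the neuropeptide PACAP from the cell surface to the nucleus, by way of the second messenger cyclic AMP (cAMP). They are the receptor gene Adcyap1r1, the G protein genes Gnas and Gnai2, the adenylyl cyclase gene Adcy9, the protein kinase A (PKA) genes Prkaca, Prkar1a and Prkar1b, and the transcription genes Creb1, Crem and Crebbp. Members were all probe sets whose only symbol in the platform annotation was 1 of these 10 genes, which gave 38 of the 45101 probe sets of the table. A probe set is a group of short probes that reads 1 stretch of a transcript. The 10 genes were listed with earlier values of these arrays in view, so their differences between groups are given as descriptions. They were chosen by symbol and role while log2 levels and TAC minus sham differences of these 6 arrays were known, and those differences support nothing by themselves.

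Adrenal medulla was taken from male C57/Bl6 mice 8 weeks after surgery, which was either transverse aortic constriction (TAC), a lasting narrowing of the aortic arch that makes the heart pump against pressure, or a sham operation. There were 3 TAC arrays and 3 sham arrays, each with RNA from both medullae of a single animal. The tissue was cut with a chisel from 12 µm frozen sections. Values are log2 probe set intensities, differences are TAC minus sham on that scale, SD is the spread of 3 arrays, and SE is the standard error from limma, a linear model fitted to all tested probe sets. Brightness depends on the probes, so levels are compared between arrays for the same probe set and not between probe sets. Tested probe sets of a gene are called by their rank in mean log2 level over the 6 arrays, the brightest having rank 1.

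Chromaffin cells of the medulla release adrenaline and noradrenaline when splanchnic nerves discharge acetylcholine and PACAP onto them. The PACAP receptor couples to the stimulatory G protein, which activates adenylyl cyclase, and the cAMP formed releases the catalytic subunits of PKA from its regulatory subunits. PKA then phosphorylates the transcription factor CREB, which recruits coactivators to a DNA element called the cAMP response element (CRE), present near genes of catecholamine synthesis and of rapid responses to activity.

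CRE letters were looked for around the starts of the member genes themselves, because the pathway these genes belong to leads to that element. RefSeq promoters of build GRCm38.p6, each of 250 bases before and 50 bases from an annotated start, were held for 8 of the 10 genes in 21 windows. The full palindrome TGACGTCA, the same on both strands, stood in 2 of the 21 member windows and in 1.79% of all 32851 windows. Both member windows belong to 1 gene, Prkar1a. The half-site TGACG, searched on both strands and also part of each palindrome, stood in 9 of the 21 member windows (42.9%), some of which overlap, and in 20.8% of all windows. It was found for 5 genes. A match of letters describes the window and does not show binding. Below are 30 bases around the match for each of these genes, 5′ to 3′ on the strand of the gene, with the match in capitals (the palindrome for Prkar1a, otherwise the half-site nearest to a start).
Prkar1a, chr11:109650882-109650911, plus strand: ggccagagcgaggcgcatTGACGTCAgcag
Prkaca, chr8:83972960-83972989, plus strand: gggctgcgggggCGTCAcggacagaggact
Gnas, chr2:174327699-174327728, plus strand: aagaggttggggCGTCAtcaggctggttag
Adcy9, chr16:4420505-4420534, minus strand: cggacccggcggTGACGtgcgcgggccgcg
Prkar1b, chr5:139150033-139150062, minus strand: tagagggcggagTGACGggcaggaggacga
Adcyap1r1, Creb1 and Crebbp had neither pattern in their windows, which says only that these letters are not there. No promoter of Gnai2 or Crem was used.

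The 6 arrays differed in the 3′ to 5′ signal of a control transcript within both groups. For Gapdh, the log2 intensity of the 5′ control was subtracted from that of the 3′ control. The result is larger where the 5′ end is read more weakly. It was 4.71, 3.67 and 3.98 in TAC 1 to 3, against 5.15, 3.08 and 2.88 in sham 1 to 3. Whether RNA integrity or the amplification set these values was not tested. Arrays TAC 1 and sham 1 were thus the highest of their groups. Of the chromaffin markers 9 of 10 were tested and 6 of these read higher after TAC, with array means of their level from 12.1 to 12.9 in TAC arrays and from 12.1 to 12.6 in sham arrays. Of 7 fibroblast markers 1 read higher, with array means from 6.12 to 7.41 in TAC arrays and from 7.05 to 8.51 in sham arrays. Of 10 adrenal cortex markers 7 were tested and 2 read higher, with array means from 6.23 to 9.10 in TAC arrays and from 6.30 to 10.5 in sham arrays, while Mc2r, Nr5a1 and Cyp11b2 lay under the filter. Macrophage markers read higher in 3 of 4 tested, with array means from 8.28 to 8.98 in TAC arrays and from 7.81 to 8.49 in sham arrays, and endothelial markers in 2 of 3, from 6.17 to 7.60 in TAC arrays and from 6.28 to 7.24 in sham arrays. Glial markers were higher in 2 of 3 and smooth muscle markers in 2 of 4. In whole tissue, fewer cells of a type and less RNA per cell cannot be told apart, and the part of these markers in the values below was not tested.

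The member genes gave no difference past the threshold, and several of them were read upwards by a probe set and downwards by another. Of the 38 member probe sets 27 were tested, those at log2 4 or more on at least 3 arrays, and the other 11 stayed below. Each gene kept at least 2 tested probe sets. None of the 27 (0) had a limma adjusted p under 0.05, where 0% of all 18188 tested probe sets did. The member adjusted p-values ran from 0.392 to 0.999. The median difference of the 27 was 0.15, with 15 higher and 12 lower, beside a median of 0.05 and 54.7% higher over all tested probe sets. At an unadjusted p under 0.05 there were 8 member probe sets (29.6%), where 6.94% of all tested probe sets are found. Of these 8, 4 were higher and 4 lower, beside 4.65% higher and 2.29% lower over all. The arrays of the groups did not overlap for 9 (33.3%), against 13% of all. Of these 9, 4 lay above and 5 below sham, beside 9.01% above and 4.01% below over all. These shares are not independent of how the genes were listed. Without TAC 1 and sham 1 the shares at an unadjusted p under 0.05 were 44.4% of members and 13.8% of all tested probe sets. With limma's array weights, where TAC 3 had a weight of 6.11 and sham 1 of 0.143, 11 member probe sets passed the adjusted threshold together with 6698 of all.

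**Figure D1:**
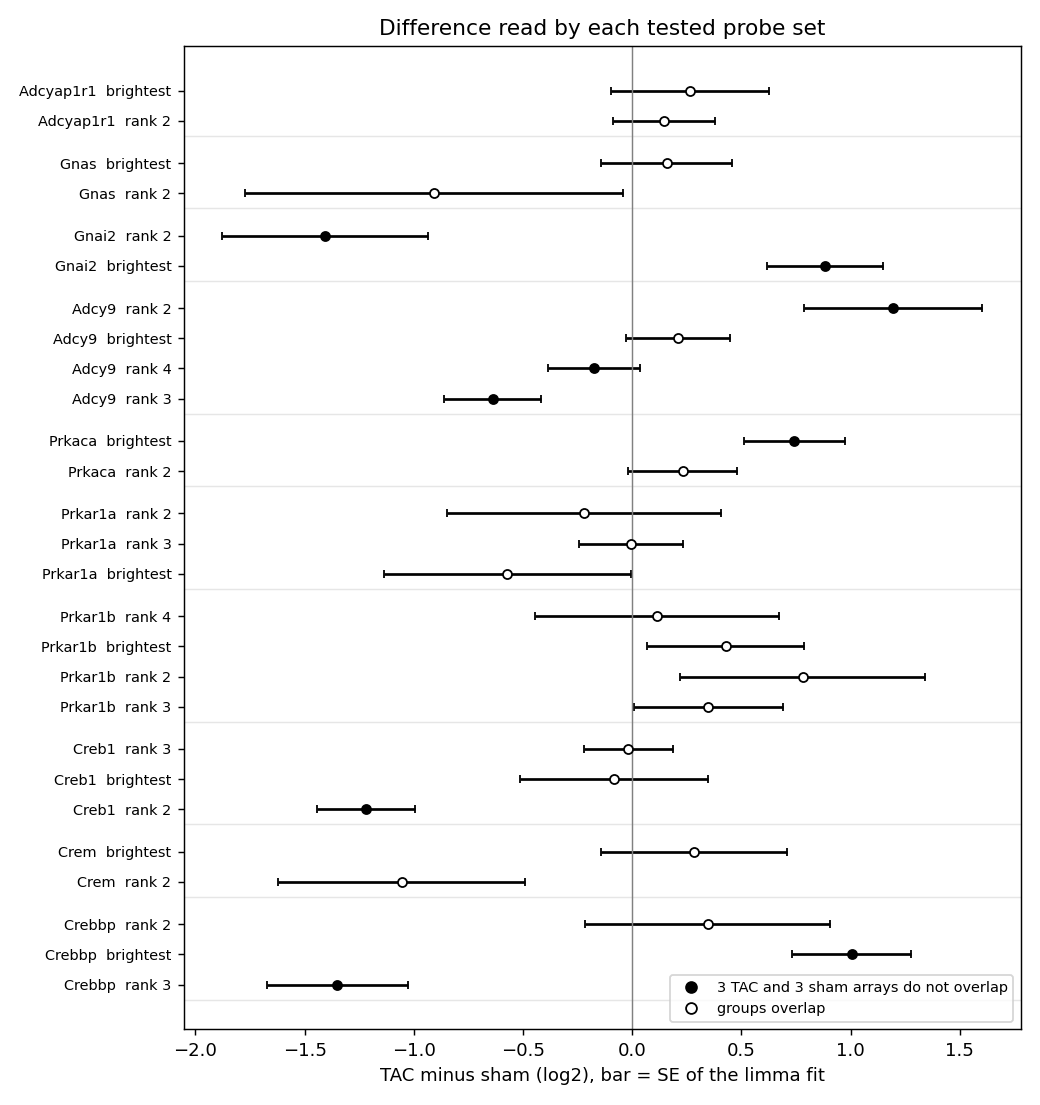
TAC minus sham on the log2 scale (x axis) for the 27 tested probe sets of the 10 genes, with the SE of the limma fit as bars. Filled points mark the 9 probe sets whose 3 TAC and 3 sham arrays do not overlap, and Gnai2, Adcy9 and Crebbp each have filled points on both sides of 0.

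The PACAP receptor gene was read by a bright probe set, whose arrays overlapped between the groups, and by dim ones at or under the filter. Adcyap1r1, whose product binds PACAP with high affinity, had 10.84, 11.77 and 11.55 in the 3 TAC arrays, against 10.69, 11.55 and 11.12 in the 3 sham arrays (brightest probe set). The groups overlapped, and within each group array 1 was the lowest. The difference was 0.26 ± 0.36 (SE), and it lay between 0.05 without sham 1 and 0.54 without TAC 1. The rank 2 probe set sat at the filter with 4.07 ± 0.08 after TAC and 3.92 ± 0.24 after sham (SD, n = 3 each) and differed by 0.15. Its remaining probe set lay below log2 4 on all 6 arrays. The genes of PACAP itself (Adcyap1) and of the receptors it shares with vasoactive intestinal peptide (Vipr1 and Vipr2) lay below log2 4 on all 6 arrays in every probe set, with 2.87 as the highest value of Adcyap1, 3.84 of Vipr1 and 2.54 of Vipr2.

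The genes of the stimulatory and of an inhibitory G protein were each read in opposite directions by their 2 tested probe sets, with overlap between the groups for the stimulatory one and without overlap for the inhibitory one. Gnas encodes the alpha subunit that activates adenylyl cyclase, in an imprinted locus with several promoters and transcripts. Its brightest probe set carries an s suffix, which marks probes that several transcripts may share. This limits what its values say of Gnas. The probe set had 12.50, 13.35 and 13.27 in TAC arrays, against 12.78, 12.94 and 12.93 in sham arrays. TAC 1 was below all sham arrays and the other TAC arrays above them, and the difference was 0.16 ± 0.30 (SE), between 0.00 without TAC 2 and 0.43 without TAC 1. The rank 2 Gnas probe set had 5.87, 3.86 and 3.84 in TAC arrays, against 7.03, 4.58 and 4.68 in sham arrays. Here the highest array of each group was array 1, and the difference of -0.91 ± 0.87 (SE) lay between -1.58 without TAC 1 and -0.11 without sham 1. The 3 remaining Gnas probe sets stayed under the filter, 1 of them just outside it at a mean of 4.07 and log2 4 reached on 2 arrays. Just inside it were Adcyap1r1 rank 2 at a mean of 3.99 (3 arrays) and Adcy9 rank 4 at 4.07 (4 arrays).

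Gnai2 encodes an alpha subunit that inhibits adenylyl cyclase. Its brightest probe set had 12.10, 11.79 and 11.93 in TAC arrays, against 11.41, 11.03 and 10.73 in sham arrays. All TAC arrays lay above all sham arrays, a 1.84-fold higher intensity (difference 0.88 ± 0.27 SE, limma adjusted p = 0.560). At rank 2 the values were 7.50, 6.97 and 6.46 in TAC arrays, against 9.25, 7.96 and 7.94 in sham arrays. There all TAC arrays lay below all sham arrays, with sham 1 highest, and the difference was -1.41 ± 0.47 (SE, limma adjusted p = 0.611). The readings were thus 2.29 apart. With the Gapdh 3′ minus 5′ value of each array as a covariate, added after the data had been seen, they were 0.77 and -1.66.

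Adcy9, which encodes a membrane-bound adenylyl cyclase, also had both signs among its 4 probe sets. The rank 2 probe set had 6.93, 7.79 and 7.37 in TAC arrays, against 5.59, 6.06 and 6.85 in sham arrays. The TAC arrays lay above the sham arrays, TAC 1 narrowly above sham 3, and the difference was 1.19 ± 0.41 (SE, limma adjusted p = 0.624). The rank 3 probe set had 4.90, 5.25 and 5.02 in TAC arrays, against 5.55, 5.78 and 5.75 in sham arrays. All TAC arrays were below all sham arrays (difference -0.64 ± 0.22 SE, limma adjusted p = 0.636). This probe set carries the s suffix, with the same limit as for Gnas. The brightest Adcy9 probe set is listed under the same source sequence as rank 3, though they may read different stretches of it. It read 7.77 ± 0.25 after TAC and 7.55 ± 0.12 after sham (SD, n = 3 each), a difference of 0.21. The rank 4 probe set, near log2 4 throughout, differed by -0.17 ± 0.21 (SE).

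Within PKA, mean differences were above 0 for all tested probe sets of the catalytic gene Prkaca and the regulatory gene Prkar1b, and at or below 0 for those of the regulatory gene Prkar1a. Except for the brightest Prkaca probe set, the groups overlapped. The brightest Prkaca probe set had 13.04, 13.06 and 12.65 in TAC arrays, against 12.22, 12.22 and 12.09 in sham arrays. All TAC arrays lay above all sham arrays, with an SD of 0.07 over the 3 sham arrays. The intensity was 1.67-fold higher (difference 0.74 ± 0.23 SE, limma adjusted p = 0.560). Its x suffix marks probes that may also bind transcripts of other genes, which limits what this value says of Prkaca. The rank 2 Prkaca probe set read 5.19 ± 0.25 after TAC and 4.96 ± 0.19 after sham (SD, n = 3 each), with overlap between the groups and a difference of 0.23, or -0.03 with array weights.

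Prkar1a encodes the regulatory subunit RI alpha, which holds the catalytic subunits inactive until cAMP binds. Its brightest probe set had 9.67, 10.68 and 10.003 in TAC arrays, against 9.53, 11.34 and 11.20 in sham arrays. Sham 2 and sham 3 were above all TAC arrays and sham 1 below them, and the difference of -0.57 ± 0.56 (SE) was -1.15 without sham 1 and -0.25 without sham 2. The rank 2 probe set had 8.89, 10.03 and 9.91 in TAC arrays, against 8.55, 10.49 and 10.47 in sham arrays, in the same order of arrays within the groups. Its difference was -0.22 ± 0.63 (SE), and it lay between -0.86 without sham 1 and 0.14 without TAC 1. The dim rank 3 probe set differed by 0.00. With the Gapdh covariate the rank 1 and rank 2 probe sets differed by -0.23 and 0.16.

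Prkar1b encodes RI beta, a regulatory subunit found mostly in neurons. Its brightest probe set had 12.61, 13.39 and 12.84 in TAC arrays, against 11.95, 12.74 and 12.87 in sham arrays. Sham 2 and sham 3 lay above TAC 1, so the groups overlapped, and the difference was 0.43 ± 0.36 (SE). This probe set and rank 3 carry the x suffix too, with the same limit as for Prkaca. The rank 2 probe set carries the s suffix, with the same limit as for Gnas. The other 3 tested probe sets differed by 0.78 (rank 2), 0.35 (rank 3) and 0.11 (rank 4), all with overlap. Without sham 1 the differences of ranks 1 to 4 were 0.14, 0.27, 0.29 and -0.37, so the sign of rank 4 turned. Without TAC 2 they were 0.21, 0.51, 0.04 and -0.24, and without TAC 1 0.60, 1.17, 0.56 and 0.50. The remaining probe set was under log2 4 on all 6 arrays.

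**Figure D2:**
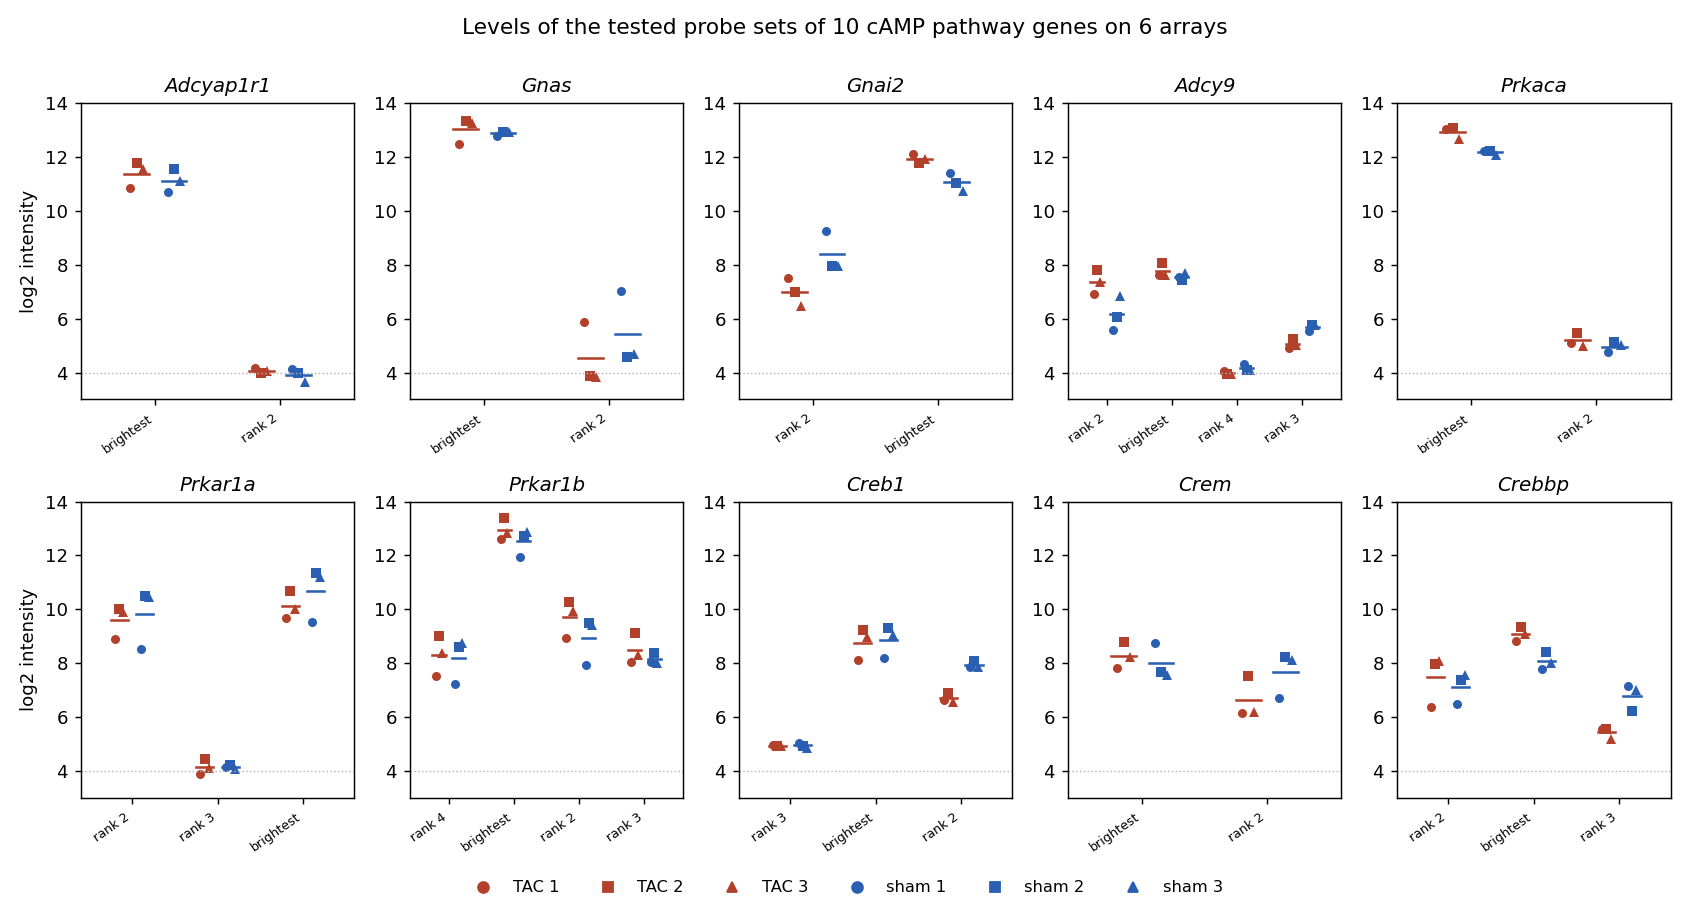
Log2 intensity (y axis) of the 27 tested probe sets by gene, with TAC arrays (red) left of sham arrays (blue), a symbol for each array number and a bar at the group mean of 3 arrays. The dotted line is log2 4. Circles, which mark TAC 1 and sham 1, are the lowest of both groups for the brightest Adcyap1r1 probe set and for ranks 1 and 2 of Prkar1a.

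Creb1, the gene of CREB itself, had a probe set with the tightest separation of the groups among the members and another with none. The rank 2 probe set had 6.65, 6.90 and 6.58 in TAC arrays, against 7.86, 8.08 and 7.85 in sham arrays. All TAC arrays lay below all sham arrays, and sham 1 did not stand apart. The intensity was 2.33-fold higher after sham (difference -1.22 ± 0.22 SE, limma adjusted p = 0.392), and over 17 alternative settings the difference lay between -1.36 and -1.11. The brightest probe set is listed under the same source sequence, though it may read a different stretch. It had 8.11, 9.22 and 8.96 in TAC arrays, against 8.19, 9.29 and 9.04 in sham arrays. The groups overlapped there, array 1 was the lowest of both, and the difference was -0.08 ± 0.43 (SE). The rank 3 probe set read 4.93 ± 0.02 after TAC and 4.95 ± 0.10 after sham (SD, n = 3 each). The other 3 Creb1 probe sets lay under log2 4 on all 6 arrays.

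Crem encodes activators and repressors of CRE-driven transcription, some of them made from an internal promoter, and its 2 tested probe sets pointed in different directions. The brightest probe set had 7.83, 8.77 and 8.24 in TAC arrays, against 8.75, 7.67 and 7.57 in sham arrays. Sham 1 was near the highest TAC array and the other sham arrays were below all TAC arrays, and the difference of 0.28 ± 0.43 (SE) lay between 0.03 without TAC 2 and 0.66 without sham 1, with 0.07 without sham 3. At rank 2 Crem had 6.17, 7.51 and 6.20 in TAC arrays, against 6.72, 8.22 and 8.10 in sham arrays. TAC 2 and sham 1 crossed the other group, and the difference was -1.06 ± 0.57 (SE, limma adjusted p = 0.833), between -1.54 without sham 1 and -0.79 without sham 2. The other 2 Crem probe sets were under log2 4 throughout.

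Crebbp encodes CBP, the histone acetyltransferase that phosphorylated CREB recruits. Its brightest probe set had 8.82, 9.33 and 9.09 in TAC arrays, against 7.79, 8.41 and 8.02 in sham arrays. All TAC arrays lay above all sham arrays, a 2.01-fold higher intensity (difference 1.004 ± 0.27 SE, limma adjusted p = 0.514). The rank 3 probe set had 5.57, 5.56 and 5.20 in TAC arrays, against 7.15, 6.21 and 7.01 in sham arrays. There all TAC arrays lay below all sham arrays, with a difference of -1.35 ± 0.32 (SE, limma adjusted p = 0.465). At rank 2 Crebbp had 6.36, 7.99 and 8.08 in TAC arrays, against 6.47, 7.37 and 7.54 in sham arrays, with a difference of 0.35 ± 0.56 (SE) that was 0.90 without TAC 1 and 0.02 without sham 1. The fourth was below log2 4 on all arrays. The mean of the 3 tested differences of Crebbp was 0.00.

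Disagreement between probe sets of a gene was common on these arrays, and it was wide for Gnai2 and Crebbp. The 10 genes were listed with these differences in view, so the shares below only describe them. Both signs occurred in 5 of the 10 member genes (Gnas, Gnai2, Adcy9, Crem and Crebbp), and in 55.3% of the 3647 genes with 2 or more tested probe sets. The differences of Gnai2 spanned 2.29, where the median span of the 2423 genes with 2 tested probe sets was 0.44 and 0.413% had a span as large. Those of Crebbp spanned 2.35, where the median of the 822 genes with 3 tested probe sets was 0.76 and 1.34% reached as far. Adcy9 spanned 1.83, where the median of the 277 genes with 4 tested probe sets was 1.02 and 11.9% reached as far. Crem spanned 1.34 and Gnas 1.06 beside the median of 0.44, with 5.94% and 11.8% of such genes as wide. Creb1 spanned 1.20 beside the median of 0.76, with 18.4% as wide. The spans of Adcyap1r1 (0.12), Prkar1a (0.57) and Prkar1b (0.67) were below the medians for their numbers of tested probe sets. That of Prkaca (0.51) was a little above its median of 0.44, with 44.1% as wide. For probe sets that the annotation lists under the same source sequence, the distance was 1.14 in Creb1, 0.85 in Adcy9 and 0.43 in Prkar1b. The median was 0.42 and the 90th percentile 1.06 over 1292 such pairs. A shared listing does not show that the probe sets of a pair read the same stretch. Where a mean of the tested probe sets stood for the gene in place of the brightest one, Gnai2 changed to -0.26, Gnas to -0.38 and Crem to -0.39, each with the opposite sign.

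Array 1 stood at the same extreme of both groups for most member probe sets. It was the lowest of both groups for 13 of the 27 and the highest of both for 7. The same held for 44.1% and 19.9% of all tested probe sets, so the members shared a pattern found over the whole table. The level of the brightest Gnai2 probe set was higher on arrays with a larger Gapdh difference within both groups. It was 11.79, 11.93 and 12.10 over TAC 2, TAC 3 and TAC 1, and 10.73, 11.03 and 11.41 over sham 3, sham 2 and sham 1. The same difference for another control transcript, beta-actin, put sham 2 (3.31) below sham 3 (3.93), the reverse of their Gapdh order. The rank 2 Gnai2 probe set did not follow the Gapdh order in the TAC arrays, with 6.97 on TAC 2 and 6.46 on TAC 3. Creb1 rank 2, Prkaca rank 1 and 5 others were neither lowest nor highest on array 1 in both groups. With the Gapdh covariate the differences were -1.19 for Creb1 rank 2, 0.73 for Prkaca rank 1, 1.10 and -1.43 for the separated Crebbp probe sets, and 1.39 and -0.59 for Adcy9 ranks 2 and 3. None of the 27 passed an adjusted p of 0.05 in that limma fit (0). Its smallest limma adjusted p was 0.071 among the members and 0.059 over all tested probe sets. Without the covariate these were 0.392 and 0.384. The covariate was added after the data had been seen.

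**Figure D3:**
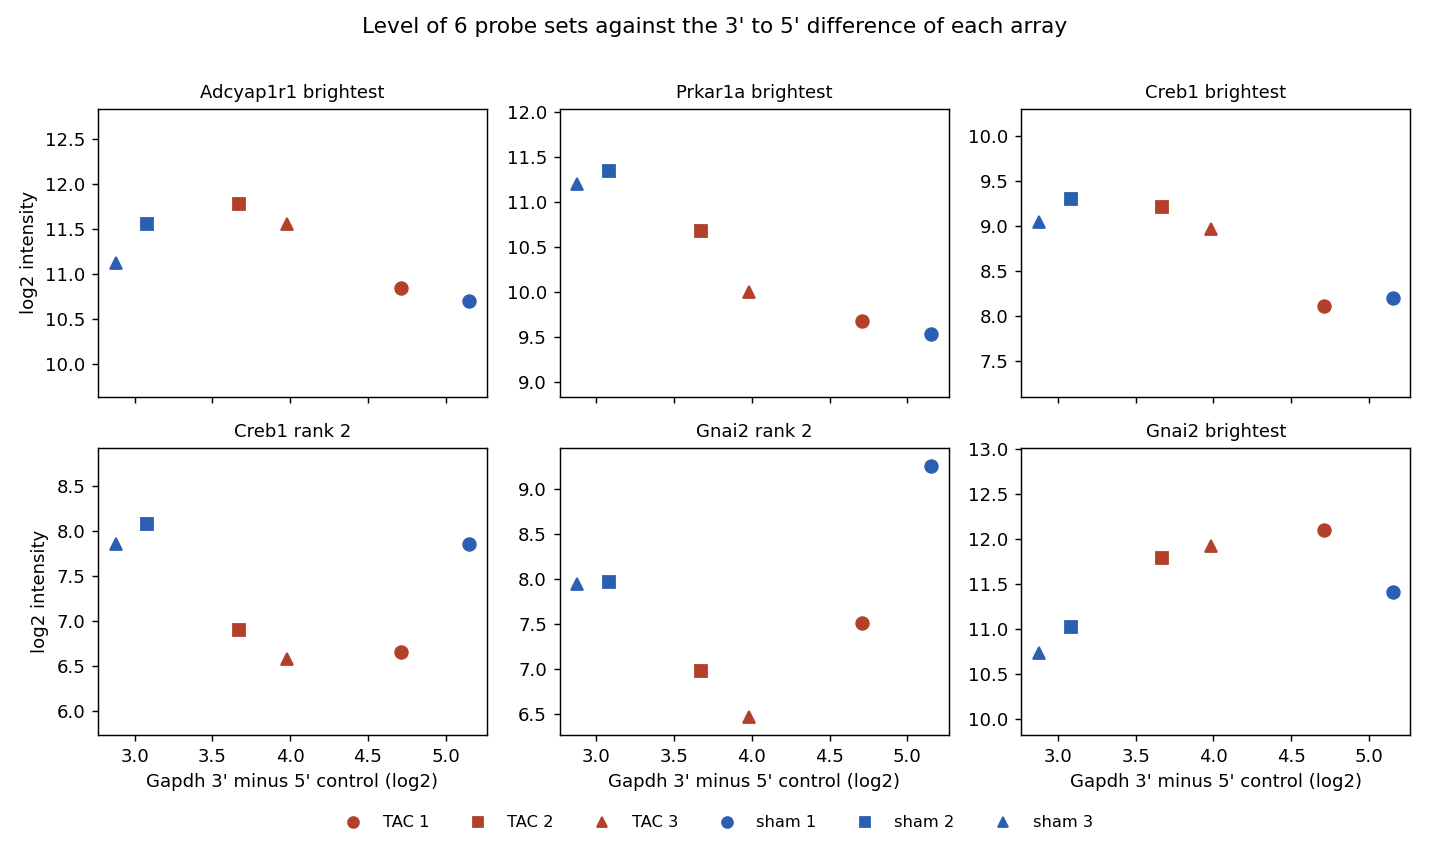
Log2 intensity (y axis, the same span in each panel) of 6 member probe sets against the Gapdh 3′ minus 5′ difference of the array (x axis, log2), 1 point for each of 3 TAC arrays (red) and 3 sham arrays (blue). Adcyap1r1, Prkar1a and Creb1 (brightest probe set of each) are low where the Gapdh difference is large, and Creb1 rank 2 keeps TAC below sham at both ends.

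The genes nearest to a member in their course over the 6 arrays were taken by the root mean square difference of the mean-centred log2 values. For the brightest Adcyap1r1 probe set they were Arfgef2 at 0.06, Pcyox1 at 0.07 and Utrn at 0.07, beside a median of 0.45 over 10171 genes. For the brightest Creb1 probe set they were Tspan31 at 0.04, Rab1a at 0.06 and B230308N11Rik at 0.06, beside a median of 0.47. All 6 had their lowest value of each group on array 1, as both members had. The likeness therefore describes a course over arrays that many genes of the table have.

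Of the other genes of the pathway, 89 were listed by role and 68 had a tested probe set. The probe set with the highest mean stood for each gene. By limma 0 of the 68 had an adjusted p under 0.05, and 3 (4.41%) had an unadjusted p under 0.05, where 7.29% of the 10181 genes tested had one. Of the 68, 40 were higher and 28 lower after TAC (median 0.06), beside 58.7% higher and a median of 0.09 over all genes. After cyclic loess 30 of the 68 were higher. The arrays of the groups did not overlap for 9 of the 68, and for 13% of all tested probe sets.

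The 3 genes at an unadjusted p under 0.05 were Prkacb, Pde2a and Gng3. Prkacb, which encodes the other main catalytic subunit of PKA, had 7.83, 9.35 and 8.74 in TAC arrays, against 9.87, 10.26 and 10.16 in sham arrays. All TAC arrays lay below all sham arrays (difference -1.45 ± 0.42 SE, limma adjusted p = 0.551), the opposite sign to Prkaca. Pde2a encodes a phosphodiesterase that breaks down cAMP and is stimulated by cyclic GMP. It had 9.46, 9.47 and 9.38 in TAC arrays, against 7.62, 8.02 and 8.81 in sham arrays, so the TAC arrays were close together and above a wider sham group (difference 1.29 ± 0.35 SE, limma adjusted p = 0.508). Gng3, a G protein gamma subunit gene of neural tissue, had 9.80, 9.69 and 9.83 in TAC arrays, against 10.23, 10.62 and 10.49 in sham arrays, all TAC arrays being lower (difference -0.67 ± 0.22 SE, limma adjusted p = 0.611).

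By role, 4 of 11 G protein genes, 5 of 7 adenylyl cyclase genes and 2 of 6 genes of PKA subunits and inhibitors were higher after TAC. Adcy7, another membrane adenylyl cyclase gene, differed by 0.54 ± 0.26 (SE), and Pkig, a PKA inhibitor gene, by 0.64 ± 0.27, both without overlap. The probe sets of Adcy7, Pkig and Pde2a carry the s suffix, with the same limit as for Gnas. Phosphodiesterase genes were higher in 7 of 9. Pde10a, whose product hydrolyses cAMP and cyclic GMP, had 9.78, 10.44 and 8.93 in TAC arrays, against 6.53, 9.99 and 8.94 in sham arrays. Its difference of 1.23 ± 0.92 (SE) rested on the low sham 1 and was 0.25 without it. Anchoring protein genes were higher in 6 of 11 (Akap11 0.59 ± 0.41 SE, from 0.33 without TAC 2 to 0.91 without TAC 1) and Epac and Rap genes in 3 of 4 (Rapgef2 0.47 ± 0.58 SE, and -0.02 without sham 1). Among the anchoring protein genes counted as higher, differences ran from -1.57 to 0.30 for Akap9 and from -0.82 to 0.47 for Akap13. Each of these had 3 tested probe sets. Those of Akap8, also counted as higher, ran from 0.08 to 0.61 over 2.

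CREB family, coactivator and SIK genes were higher in 7 of 9 by the brightest probe set of each gene. Sik3, which encodes a kinase that PKA inhibits and that restrains CREB coactivators, differed by 1.20 ± 0.74 (SE), with 0.59 without sham 1 and 1.84 without TAC 1. Atf4, a transcription factor gene of the wider family, differed by 0.49 ± 0.32 (SE), with 0.77 without sham 1, and both genes had overlap between the groups. This Atf4 probe set carries the x suffix, with the same limit as for Prkaca. Over the 3 tested probe sets of each gene, differences ran from -0.73 to 0.49 for Atf4 and from -0.06 to 1.20 for Sik3. They ran from -1.36 to 0.38 for Atf2 and from -0.89 to 0.27 for Creb3, also over 3 tested probe sets each. All of these genes are counted as higher above, though each had a probe set that read lower. Genes known as CREB targets were higher in 6 of 10. Fos, chosen after its values were seen, had 12.34, 14.46 and 12.81 in TAC arrays, against 11.42, 13.37 and 12.36 in sham arrays, with a difference of 0.82 ± 0.72 (SE). Nr4a3, an orphan nuclear receptor gene, had 2.80, 4.59 and 4.72 in TAC arrays, against 7.09, 4.72 and 4.77 in sham arrays. TAC 1 alone was far below and sham 1 alone far above, so the difference of -1.49 ± 0.83 (SE) was -0.09 without both. Penk, the proenkephalin gene, differed by -0.86 ± 0.49 (SE), with -0.45 without sham 2, -1.27 without sham 1 and -1.67 with array weights. Vip, which encodes vasoactive intestinal peptide, had 3.59, 4.80 and 2.90 in TAC arrays, against 3.81, 6.53 and 4.95 in sham arrays (difference -1.33 ± 0.80 SE, and -0.62 without sham 2), with values below log2 4 on 3 arrays.

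**Figure D4:**
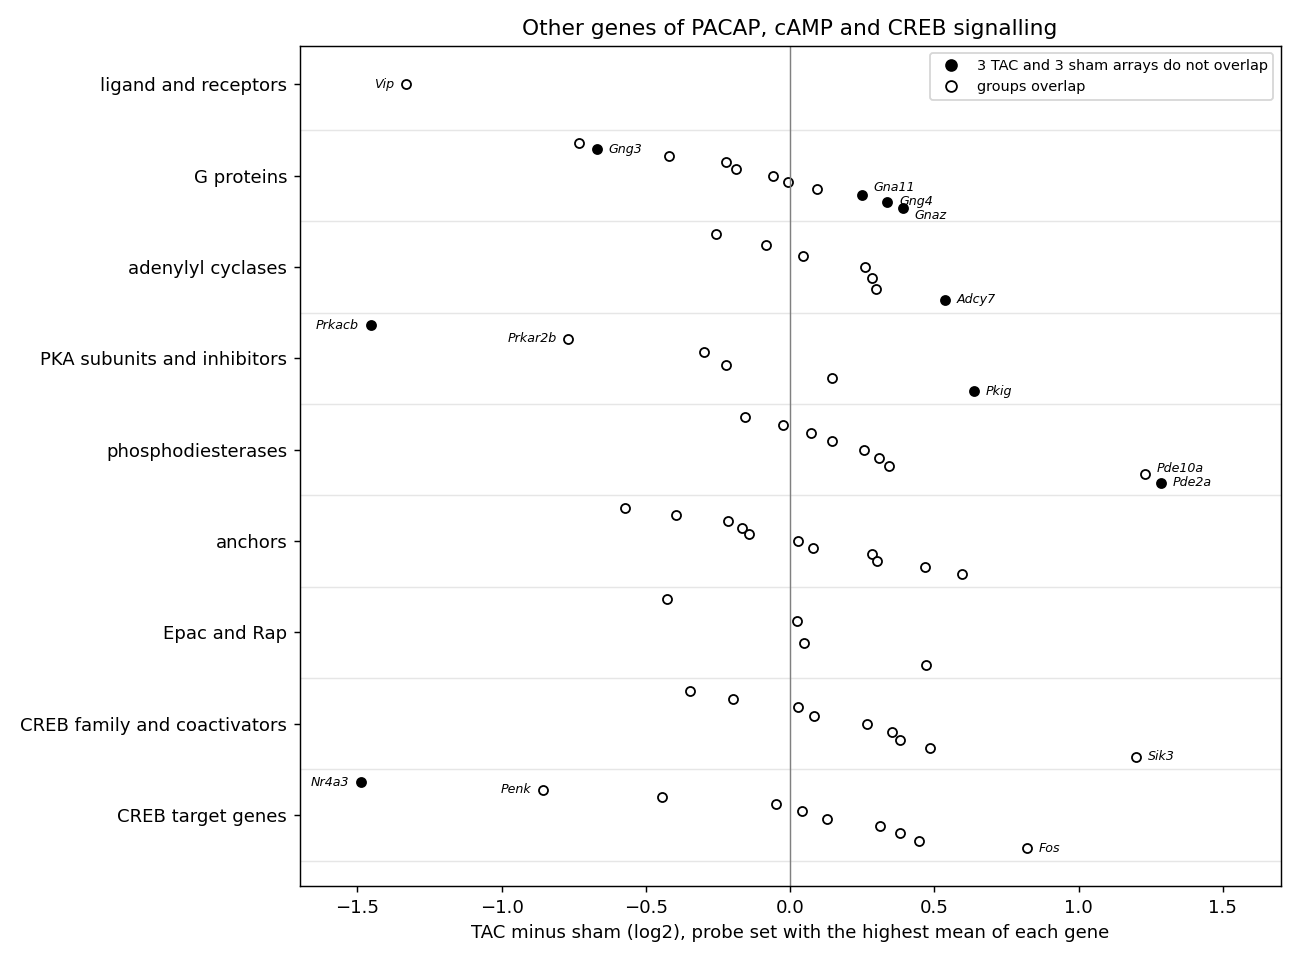
TAC minus sham on the log2 scale (x axis) for the 68 other pathway genes with a tested probe set, 1 point a gene, in rows by role. Filled points mark genes whose 3 TAC and 3 sham arrays do not overlap, and Prkacb (-1.45) and Pde2a (1.29) are the outermost of them beside Nr4a3 (-1.49). The separation of Nr4a3 is close to a tie, with 4.7206 on TAC 3 and 4.721 on sham 2.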

How the data were processed

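Microdissected adrenal medulla of 3 TAC and 3 sham mice was measured on Affymetrix mouse whole-genome arrays, 1 array per animal, after 3′ amplification in 2 cycles, per the labels' protocols. The authors deposited a linear, background-corrected intensity for each probe set on each array. Per the submitters' processing notes these came from GCRMA, of which neither version nor settings are given here. The columns do not share 1 distribution (median intensity per array 9.14 to 10.9), and the only step taken here before testing was log2 of the deposited values.

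The 64 array controls were left out. A probe set was tested if 3 or more arrays reached log2 4. Tests used limma 3.58.1 (R 4.3.3; moderated, 2-sided, group as the only term), p-values were adjusted by Benjamini-Hochberg over all 18188 probe sets with a threshold of 0.05, and the code was tested on simulated data. Probe sets are called by gene and rank in mean level. Genes were named through GEO's platform annotation where it gave 1 symbol. The members and lists were chosen with earlier results of these data known. Named were all member probe sets, the 1 or 2 genes with the smallest p in each role, PACAP, its other receptors and Prkacb, and the 3 genes nearest to Adcyap1r1 and Creb1. Having 3 arrays a group limits the precision, and the median SE of a difference was 0.39. Alternatives were other scalings, filters, offsets, weights, a replicate block and leaving out arrays.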

Additional observations from a re-analysis of the deposited data

How the results depend on the processing

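The count of 0 probe sets at a limma adjusted p under 0.05, and of 0 among the 27 members, held in each alternative except array weights, with 6698 and 11. The count at an unadjusted p under 0.05 was 1263, and it was 2110 without a filter on low values, 8749 with array weights, 641 to 2429 when single arrays were left out (2429 without sham 1, 641 without sham 2, 773 without sham 3, 695 without TAC 3), 2507 without both arrays numbered 1 and 3843 with the Gapdh covariate, the last 2 chosen after seeing the data. For the members it was 8, and 4 to 9 when single arrays were left out (4 without sham 2, 5 without sham 3 or TAC 3). The labels number the arrays 1 to 3 in both groups. Their deviations from the group means correlated at 0.76 and 0.78 for numbers 1 and 2 and at -0.22 for number 3, so the number was not taken as a pairing. With it as a replicate block, 3005 probe sets, 11 of them members, had an unadjusted p under 0.05 and 0 an adjusted one. Of 27 member probe sets, 20 kept their sign in every alternative run, and 25 under all 3 scalings. The exceptions were Gnas brightest, Prkaca rank 2, Prkar1a rank 2 and rank 3, Prkar1b rank 4, and Creb1 rank 3 and brightest.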
